A study of Mus musculus with 3 samples.

Results

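*Pou5f1*, the gene that encodes OCT4, lies inside the major histocompatibility complex of mouse chromosome 17, among genes that have little in common beyond their address. The 95 genes described here are the annotated neighbours of *Oct4*: every row of the deposited tables whose locus overlaps the stretch from 1 Mb before to 1 Mb after *Pou5f1* (mm9), without *Pou5f1* itself and without classical and non-classical histocompatibility genes (H2), heat shock 70 genes, microRNA, small nucleolar RNA, olfactory receptor and ribosomal protein genes. The stretch holds 131 of the 23953 genes in the tables, and 36 were set aside in this way.

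An enhancer is a stretch of DNA that raises transcription of a gene from a distance, and most enhancers act on genes of their own neighbourhood. The distal enhancer (DE) upstream of *Oct4* is bound by OCT4 and SOX2 and is the element that drives *Oct4* in embryonic stem cells (ESCs). On the far side of the DE from *Oct4* lie H2 genes and then the class III region, a gene-dense stretch with complement components, tumour necrosis factor genes and many housekeeping genes. On the *Oct4* side follow genes of the outer skin layer and further housekeeping genes.

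RNA-seq of E14 mouse ESCs, an established line grown with serum and LIF, was compared in 3 libraries, 1 per condition. The treated line carries, on both alleles by the study's account, loxP sites on either side of the *Oct4* DE. It also carries a doxycycline-inducible mouse *Oct4* transgene with its transactivator, and a tamoxifen-inducible Cre recombinase, brought in by lentivirus, and it was expanded from single clones. The library labelled Tam comes from cells given 4-OH tamoxifen for 48 h, and the library labelled DoxTam from cells given 4-OH tamoxifen with doxycycline for 48 h. The library labelled WT is the control of both comparisons. The study calls its controls wild-type E14 cells, and the labels list both inducible constructs for this library too. With 1 library each there is no replicate check, no difference below has a p-value, and clone, culture and treatment cannot be told apart.

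The segment that Cre removes was placed on the mm9 sequence from the study's guide RNAs and repair oligonucleotides. All distances below run from its edges to the nearest edge of each gene's locus, which is not always the transcription start. The segment spans chr17:35640938-35641753, which is 816 bp with a GC content of 52.2%. Both guides match the minus strand of the genome at 1 place, at chr17:35640914-35640933 and chr17:35641748-35641767. They are shown 5′ to 3′ with the protospacer adjacent motif of the genome in capitals.
Guide at the CR4 end: cccacacccagttcctcccaGGG
Guide at the DE3′ end: cagtctgaggatcccattacTGG
The first 180 bases of the segment (chr17:35640938-35641117, plus strand) are shown because they hold the 1 match of the segment to GCATNACAA, the letters of a partial octamer beside a SOX site, which is in capitals at chr17:35640998-35641006.
Start of the removed segment: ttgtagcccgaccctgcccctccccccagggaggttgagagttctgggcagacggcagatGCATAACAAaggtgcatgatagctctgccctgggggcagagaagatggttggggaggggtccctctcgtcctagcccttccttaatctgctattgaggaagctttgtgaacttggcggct
On either strand, these letters occurred in 0.755% of 27025 RefSeq promoters (GRCm38.p6, 300 bases each) and in 1 of the 71 promoters of neighbours that were found there.

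*Pou5f1*, which begins 1224 bp from the segment, had 664 FPKM (fragments per kilobase of transcript, scaled to library depth) in WT, 529 FPKM in Tam and 458 FPKM in DoxTam. Its log2 folds were -0.33 and -0.54, or -0.18 and -0.17 with each library rescaled to the same summed FPKM. The library labelled as induced for transgenic *Oct4* was thus below the others as deposited and within 0.01 of the Tam fold when rescaled, and the library labelled as deleted for the DE kept most of the level, so the labels were not borne out by the targeted gene and every direction below rests on them. All 8 pluripotency markers examined (*Nanog*, *Sox2*, *Klf4*, *Esrrb*, *Zfp42*, *Dppa5a*, *Tdgf1* and *Utf1*) were at 1 FPKM or more in each library, with summed levels of 2349, 2150 and 2213 FPKM in WT, Tam and DoxTam. The 6 trophectoderm markers summed to 20.6, 27.5 and 24.5 FPKM, the 4 primitive endoderm markers to 2.72, 2.33 and 2.18 FPKM, and the 4 fibroblast markers (*Thy1*, *Col1a1*, *Col1a2* and *Vim*) to 85.3, 79.7 and 72.9 FPKM. In WT, Tam and DoxTam, 3, 4 and 3 trophectoderm markers reached 1 FPKM. So did 1, 1 and 0 primitive endoderm markers and 2 fibroblast markers in each library, so these sums rest on part of each list. The part of other cell types in the results was not tested, and fewer cells expressing a gene cannot be told apart from less RNA per cell. Estimated depth was about 14400000 fragments in WT, 6720000 in Tam and 8380000 in DoxTam.

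Most expressed neighbours of *Oct4* were below WT in the deposited values, 44 of 62 in Tam and 46 of 61 in DoxTam. With each library rescaled to the same total, 36 of 63 and 29 of 61 were below WT. That total, used throughout unless stated, includes the microRNA gene *Mir6236*. This gene held 43.1% of summed FPKM in WT, 35.3% in Tam and 27.4% in DoxTam. With microRNA, small nucleolar and similar small RNA genes left out of the total, 44 of 62 and 46 of 61 were below WT. A gene counted as measured if either library of the comparison reached 1 FPKM, and as higher or lower at 1.5-fold on the log2(FPKM + 1) scale, which understates the change of low genes. For Tam, 62 neighbours were measured: 10 were lower (16.1%, against 3.59% of all 12705 measured genes) and 2 were higher (against 6.98% of all genes). For DoxTam, 61 were measured: 15 were lower (24.6%, against 5.78% of all 12384 genes) and 0 were higher (against 4.12%). Rescaled to the same total, the counts became 6 lower and 4 higher for Tam (9.52% lower, against 2.11% lower and 11.0% higher of all genes). For DoxTam they became 5 lower and 3 higher (8.20% lower, against 1.76% lower and 22.0% higher of all genes). With small RNA genes left out of the total, they were 10 lower and 2 higher for Tam (against 3.71% and 6.88% of all genes). For DoxTam they were then 15 lower and 0 higher (against 5.60% and 4.33%).

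The median log2 fold of the measured neighbours was -0.18 in Tam and -0.30 in DoxTam, where all genes had 0.021 and -0.003. The rest of chromosome 17 had medians of -0.010 and -0.068. Rescaling to the same total moved the median of all genes to 0.15 in Tam and 0.32 in DoxTam. It moved the neighbours' medians to -0.06 and 0.03, so the sign of the DoxTam median turned, while the neighbours stayed below all genes by 0.21 and 0.29. With small RNA genes left out of the total, the sign did not turn. All genes then had medians of 0.016 and 0.005, and the neighbours -0.19 and -0.29. WT had the highest of the 3 levels for 41 of the 61 neighbours measured in both comparisons (67.2%), against 4603 of 12241 genes overall (37.6%). Both comparisons share the WT library, so these counts are not independent of each other.

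**Figure D1:**
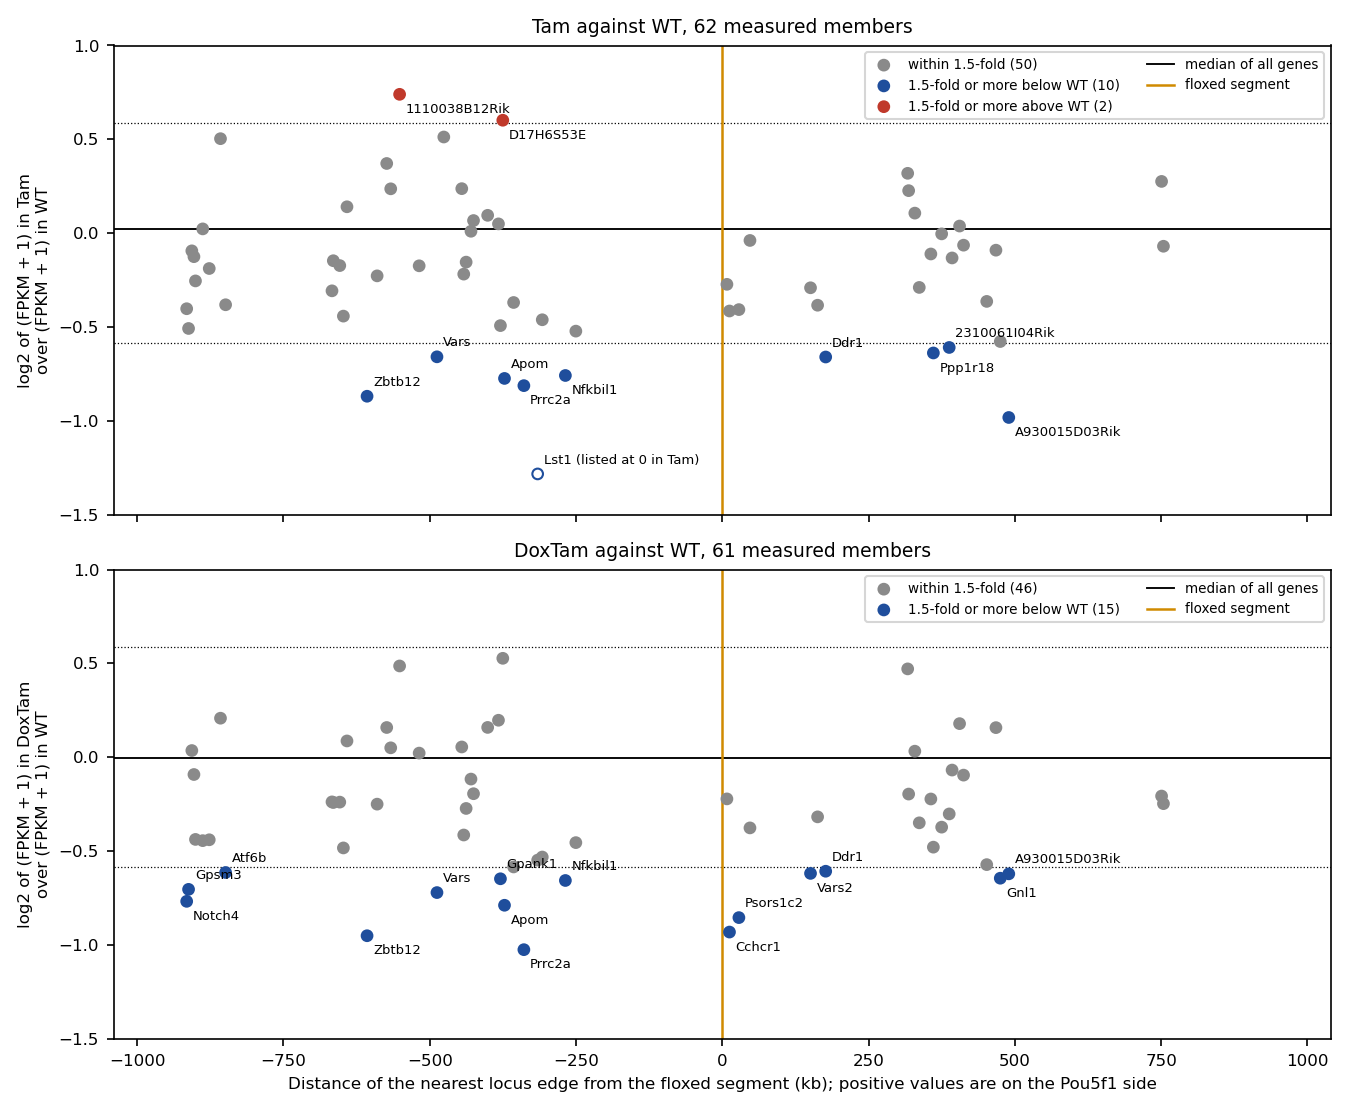
Log2 fold of each measured neighbour of *Oct4* in Tam (top) and DoxTam (bottom) against WT, by the distance of its locus from the removed segment in kb, with *Pou5f1* on the positive side. Blue points are 1.5-fold or more below WT (10 and 15 genes), red points 1.5-fold or more above (2 and 0), grey points lie between, the open point is a gene listed at 0 in Tam, dotted lines mark 1.5-fold and the solid line the median of all genes. Values are FPKM as deposited, and rescaling to the same total leaves 6 and 5 genes lower, or 10 and 15 with small RNA genes left out of the total.

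Transcript GC content moved with these folds across the transcriptome. Across 11867 genes, GC content and the Tam fold had a Spearman rho of -0.39, and across 11613 genes GC content and the DoxTam fold had a rho of -0.61. The neighbours are GC-rich, with a median of 57.0% against 50.7% for all measured genes, and among them the rho was -0.35 (59 genes) and -0.48 (58 genes). These points share their libraries and are no independent replicates. With the GC trend of all genes removed, the neighbours' medians were -0.068 in Tam and -0.098 in DoxTam. Then 4 neighbours were lower in Tam (*Apom*, *Lst1*, *Prrc2a* and *Zbtb12*, or 6.78% against 2.28% of all genes) and 4 in DoxTam (*Apom*, *Cchcr1*, *Prrc2a* and *Psors1c2*, or 6.90% against 2.13%). *Apom* had about 2 fragments in each treated library, and *Lst1* about 5 in WT and 0 in Tam. Higher were 2 of 59 in Tam (*D17H6S53E* and *Sapcd1*, against 5.33% of all genes) and 2 of 58 in DoxTam (*D17H6S53E* and *Ier3*, against 2.14%). *Sapcd1* had about 6 fragments in WT and in Tam.

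**Figure D2:**
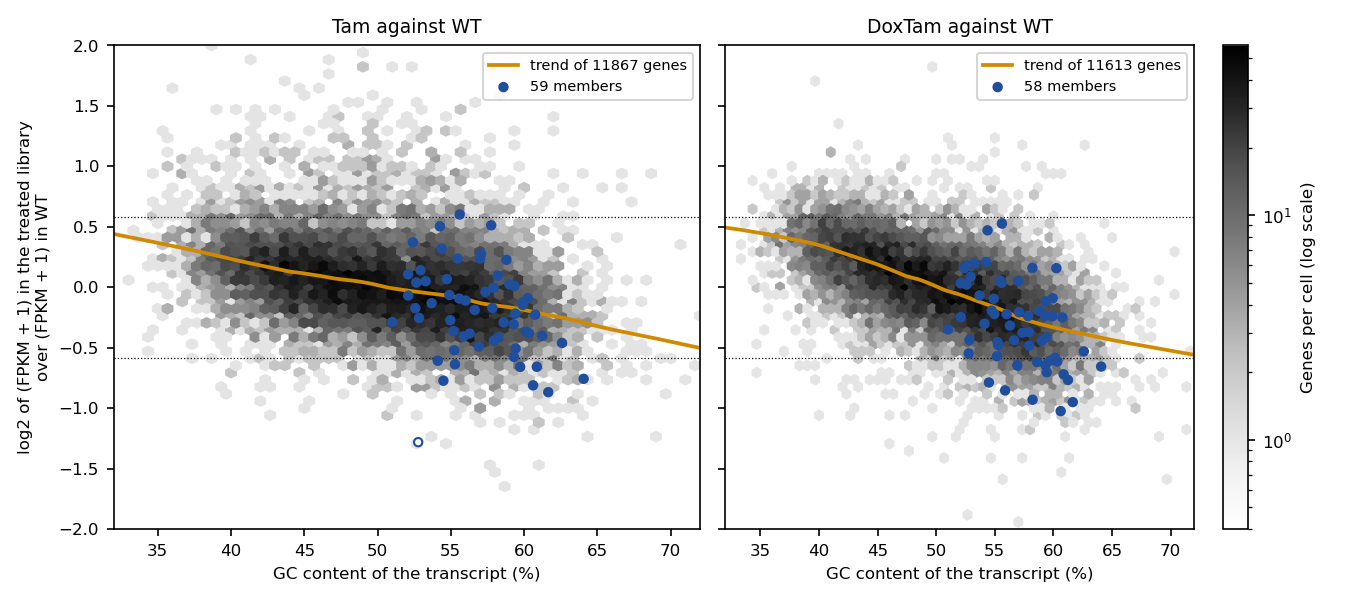
Log2 fold against WT (vertical) by GC content of the transcript in percent (horizontal) for Tam (left) and DoxTam (right). Grey cells count all measured genes on a log scale, the orange line is their trend, blue points are the 59 and 58 neighbours of *Oct4* with a GC value, the open point is listed at 0 in Tam, and genes beyond the axes are not drawn. The trend falls from left to right in both panels, and the neighbours sit on its GC-rich end.

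The nearest measured gene is *Tcf19*, a growth-regulated transcription factor gene 7.93 kb from the segment (chr17:35649680-35653769, minus strand). This distance is to its 3′ end, and its start lies at the far end of the locus, beside that of *Cchcr1*. *Tcf19* had 9.96 FPKM in WT, 8.08 in Tam and 8.40 in DoxTam, log2 folds of -0.27 and -0.22, within 1.5-fold in both. Its DoxTam fold turned to 0.11 when rescaled to the same total, where all genes had a median of 0.32. *Cchcr1*, which encodes a coiled-coil protein of the centrosome, starts beside *Tcf19* in the opposite direction (chr17:35654061-35667960, plus strand, 12.3 kb). Its level was 18.0 FPKM in WT, 13.2 in Tam and 8.94 in DoxTam, log2 folds of -0.41 and -0.93, and DoxTam was below Tam as well as WT. Counting alone gives each of these folds an approximate SE of 0.10 to 0.18, and the spread between cultures is not known.

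*Tcf19* and *Cchcr1* are transcribed away from each other out of 1 short region, which is shown because its genes had unlike folds in DoxTam. The annotated starts bound chr17:35653769-35654045 (277 bp, GC content 66.4%), printed on the plus strand so that *Tcf19* begins at its left end and *Cchcr1* at its right end. Capitals mark 3 CCAAT boxes, all read as ATTGG on this strand, and 1 GC box (GGGCGG, read as CCGCCC).
Between *Tcf19* and *Cchcr1*: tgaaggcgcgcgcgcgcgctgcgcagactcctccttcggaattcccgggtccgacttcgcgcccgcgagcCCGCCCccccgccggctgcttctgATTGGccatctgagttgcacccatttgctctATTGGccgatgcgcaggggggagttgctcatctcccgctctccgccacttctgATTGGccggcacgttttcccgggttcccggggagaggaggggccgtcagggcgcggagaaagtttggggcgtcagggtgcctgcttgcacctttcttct
CCAAT occurred on either strand in 37.9% of all RefSeq promoters and in 25 of the 71 promoters of neighbours, and GGGCGG in 35.9% of all and in 39 of the 71.

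The next genes belong to the outer skin layer, where *Cdsn* encodes corneodesmosin, an adhesion protein of cornified cells. *Psors1c2* (chr17:35670146-35671592, 28.4 kb) had 5.28 FPKM in WT, 3.74 in Tam and 2.48 in DoxTam, log2 folds of -0.41 and -0.85, with about 53 fragments in WT and a counting SE of 0.40 and 0.43. *Cdsn* (chr17:35689073-35694125, 47.3 kb) had 1.38, 1.32 and 0.83 FPKM, log2 folds of -0.04 and -0.38. *2300002M23Rik* (62.7 kb) had 0.06 FPKM in WT, was listed at 0 in Tam and had 0.13 FPKM in DoxTam. Of 5 genes of the skin and mucosal barrier list, 3 were measured, 0 were lower in Tam and 2 in DoxTam (*Cchcr1* and *Psors1c2*). *Cchcr1* was placed in this list although it encodes a centrosome protein. The list median was -0.41 and -0.85, which are the folds of *Psors1c2*, or -0.28 and -0.59 rescaled to the same total. *Dpcr1* and *Sfta2*, genes of mucosal surfaces, were below 1 FPKM.

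Between 100 and 250 kb, 3 of 7 neighbours were measured. *Vars2*, the valyl-tRNA synthetase of mitochondria (151 kb), had 9.76 FPKM in WT, 7.80 in Tam and 6.01 in DoxTam, log2 folds of -0.29 and -0.62. *Gtf2h4*, a subunit of the general transcription factor TFIIH (163 kb), had 26.1, 19.8 and 20.7 FPKM, log2 folds of -0.38 and -0.32. *Ddr1*, a receptor tyrosine kinase for collagen (177 kb), had 12.2, 7.37 and 7.68 FPKM, log2 folds of -0.66 and -0.61. It was lower in both treated libraries as deposited, and in neither when rescaled to the same total or with the GC trend removed (-0.48 and -0.28).

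All 7 measured genes within 250 kb of the segment lie on the *Pou5f1* side, since the opposite side there holds the H2 genes left out. All 7 were below WT in Tam and all 7 in DoxTam, against 6 and 5 of 7 when rescaled to the same total, and 6 and 7 of 7 with the GC trend removed. With small RNA genes left out of the total, all 7 were below WT in both. Their median log2 fold was -0.38 in Tam and -0.61 in DoxTam. The genes beyond 250 kb had medians of -0.15 and -0.25.

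By class, the Tam medians were -0.34 under 100 kb (4 genes), -0.38 from 100 to 250 kb (3 genes), -0.15 from 250 to 500 kb (33 genes) and -0.16 from 500 to 1000 kb (22 genes). The DoxTam medians were -0.61 (4 genes), -0.61 (3 genes), -0.32 (32 genes) and -0.24 (22 genes) in the same order. With the GC trend removed they were -0.23, -0.28, -0.04 and -0.03 in Tam and -0.38, -0.28, -0.09 and 0.05 in DoxTam. With both sides pooled, the classes under 250 kb thus had lower medians than those beyond it, and the ranges of the classes overlapped throughout. In Tam as deposited the medians did not rise steadily from class to class. The measured genes under 250 kb all lie on the *Pou5f1* side, so distance and side cannot be told apart there. From 250 to 500 kb the sides differed. The opposite side had medians of -0.29 in Tam (18 genes) and -0.45 in DoxTam (17 genes). The *Pou5f1* side had -0.11 and -0.22 (15 genes in each).

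The order by distance was weak gene by gene. Spearman's rho between distance and log2 fold was 0.21 over 62 genes in Tam and 0.16 over 61 genes in DoxTam. On the opposite side alone it was 0.21 (38 genes) and 0.11 (37 genes), and on the *Pou5f1* side 0.085 (24 genes) and 0.22 (24 genes). With the GC trend removed the values for both sides together were 0.25 and 0.19. Other settings gave smaller values. Over genes with about 50 fragments or more in WT they were 0.14 and 0.07, and without a filter on low values 0.10 and 0.08. Distance and GC content themselves had a rho of 0.11 over the 59 genes with a GC value.

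The lower genes were spread over the classes in number, and in DoxTam as deposited their share was largest under 250 kb. In Tam, 0 of 4 genes were lower under 100 kb, 1 of 3 from 100 to 250 kb, 8 of 33 from 250 to 500 kb and 1 of 22 from 500 to 1000 kb. In DoxTam, the counts were 2 of 4, 2 of 3, 7 of 32 and 4 of 22 in the same order, and the nearest classes hold few genes. Over all measured genes the lower share was 3.59% in Tam and 5.78% in DoxTam. Within 250 kb, 1 of 7 genes in Tam and 4 of 7 in DoxTam were lower as deposited. Rescaled to the same total or with the GC trend removed, 0 and 2 of 7 were, the latter *Cchcr1* and *Psors1c2*. With small RNA genes left out of the total, 1 and 4 of 7 were. On the *Pou5f1* side 4 of 24 genes were lower in Tam and 6 of 24 in DoxTam, and on the opposite side 6 of 38 and 9 of 37.

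**Figure D3:**
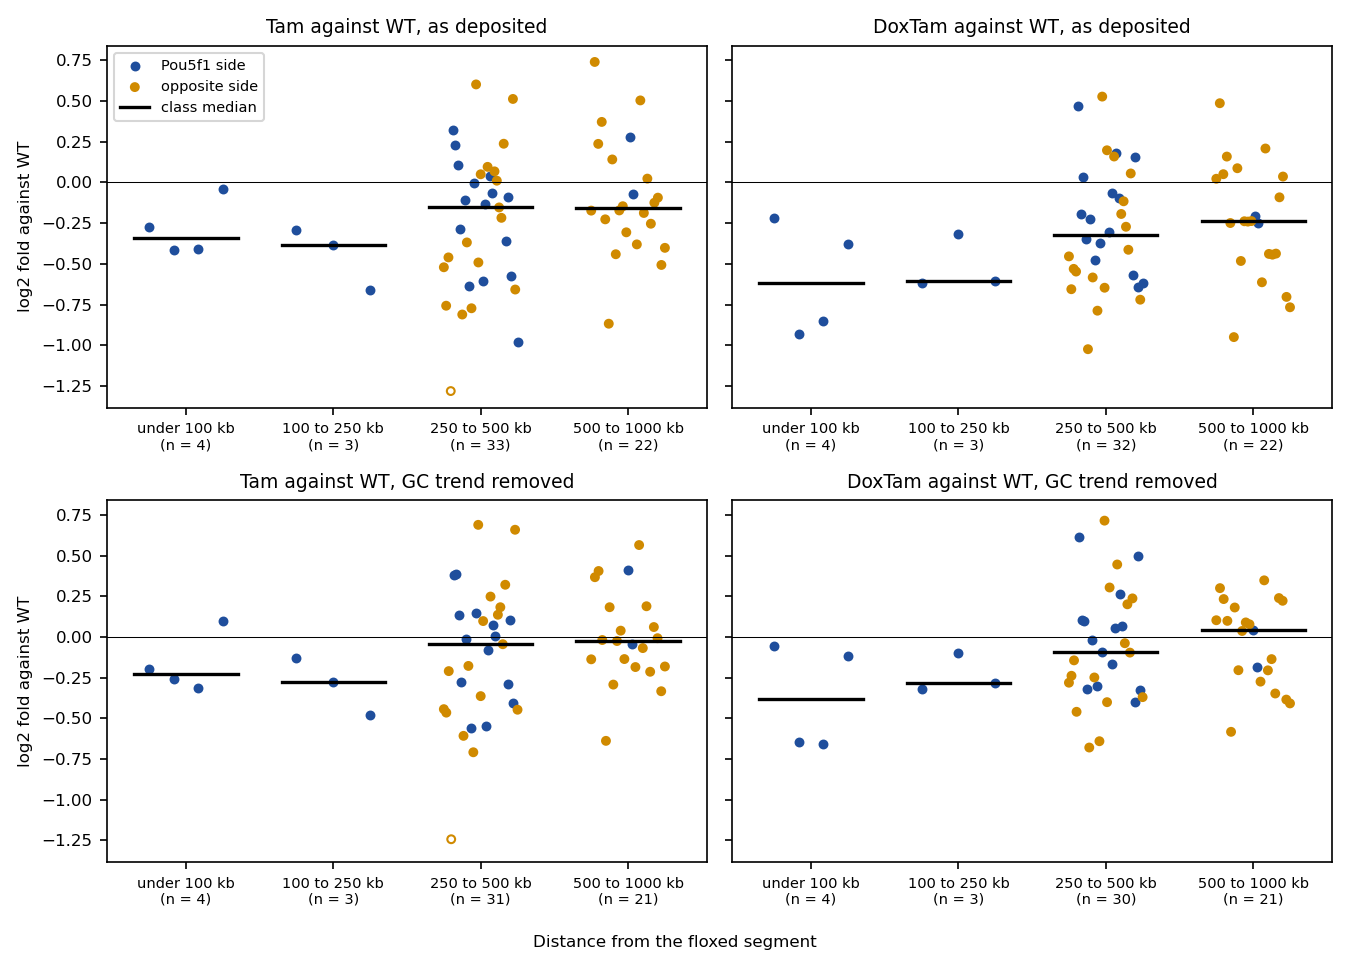
Log2 fold against WT of the measured neighbours in 4 classes of distance from the removed segment, for Tam (left) and DoxTam (right), as deposited (top) and with the GC trend removed (bottom). Each point is a gene (blue on the *Pou5f1* side, orange on the opposite side, open if listed at 0 in Tam), black bars are class medians, and n is the number of genes. The DoxTam medians run from -0.61 in the nearest class to -0.24 in the farthest, and from -0.38 to 0.05 with the GC trend removed; rescaling to the same total shifts all classes upward.

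Most genes listed under transcription and chromatin were below WT as deposited. The list was drawn broadly and also holds *Prrc2a*, *Bag6* and *Notch4*, which encode an RNA-binding protein, a chaperone and a receptor. Of 15 listed genes 14 were measured, 3 were lower in Tam and 5 in DoxTam (against 3.59% and 5.78% of all genes). Rescaled to the same total, 3 and 2 were lower (against 2.11% and 1.76%). The medians as deposited were -0.37 and -0.42. All 14 were below WT in Tam and 13 of 14 in DoxTam, but 11 and 7 of 14 when rescaled to the same total. With small RNA genes left out of the total, 14 and 13 of 14 were below WT. The median GC content of these genes was 59.0%, and with the GC trend removed their medians were -0.19 and -0.22.

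*Prrc2a*, which encodes a large RNA-binding protein, had the largest fold as deposited in both comparisons among neighbours at 20 FPKM or more in WT (chr17:35286031-35301822, minus strand, 339 kb). It had 146 FPKM in WT, 82.9 in Tam and 71.4 in DoxTam, log2 folds of -0.81 and -1.02. With about 14164 fragments in WT, its counting SE was 0.03 in both comparisons. With the GC trend removed its folds were -0.61 and -0.68, and rescaled to the same total -0.67 in both, where *1110038B12Rik* had the larger folds of 0.89 and 0.85. On the log2(FPKM + 1) scale it was the 1 neighbour below WT by 2-fold in DoxTam.

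The *Prrc2a* promoter is shown because it is 1 of the 2 promoters of neighbours with the octamer ATGCAAAT, the sequence that POU factors such as OCT4 bind. The 300 bases around its annotated start (chr17:35301793-35302092) are printed 5′ to 3′ on the minus strand, 250 before the start and 50 from it on. Capitals mark 2 octamers and 3 GC boxes (GGGCGG or CCGCCC).
*Prrc2a* promoter: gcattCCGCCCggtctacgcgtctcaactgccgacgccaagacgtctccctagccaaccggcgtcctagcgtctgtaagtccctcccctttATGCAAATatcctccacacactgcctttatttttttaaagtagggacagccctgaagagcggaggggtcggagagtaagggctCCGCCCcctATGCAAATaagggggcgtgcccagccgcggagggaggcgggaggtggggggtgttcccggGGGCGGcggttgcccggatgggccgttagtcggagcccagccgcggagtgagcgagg
The octamer occurred on either strand in 1.75% of the 27025 RefSeq promoters and in 2 of the 71 of neighbours, the other being *Ly6g6d*. *Ly6g6d*, which encodes a surface protein of the LY6 family, had 6.15 FPKM in WT, 6.20 in Tam and 5.60 in DoxTam, within 1.5-fold in both. It had about 35 fragments in WT and a counting SE of 0.43 and 0.41. The part of the motif in either gene's fold was not tested.

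*Zbtb12*, a zinc finger gene of the BTB family (607 kb), had 7.95 FPKM in WT, 3.91 in Tam and 3.63 in DoxTam, log2 folds of -0.87 and -0.95, or -0.64 and -0.58 with the GC trend removed. *Nfkbil1*, which encodes a nuclear relative of the inhibitors of NF-kappa B (268 kb), had 10.7, 5.94 and 6.45 FPKM, log2 folds of -0.76 and -0.66. Its transcript had the highest GC content of the measured neighbours, 64.1%, and its folds with the trend removed were -0.46 and -0.24. Both genes were lower in Tam and in DoxTam as deposited, and rescaled to the same total *Nfkbil1* kept this in Tam (-0.63) and not in DoxTam (-0.34).

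*Notch4*, a Notch receptor of blood vessels (915 kb), had 15.9 FPKM in WT, 11.8 in Tam and 8.93 in DoxTam, log2 folds of -0.40 and -0.77. *Atf6b*, a transcription factor of the endoplasmic reticulum stress response (849 kb), had 19.96, 15.1 and 12.7 FPKM, log2 folds of -0.38 and -0.61. Both passed 1.5-fold in DoxTam as deposited but not when rescaled to the same total or with the GC trend removed (-0.41 and -0.27), and whether DoxTam differed from Tam cannot be tested with 1 library each. *Bag6*, a chaperone for membrane proteins (357 kb), lay just inside the threshold in DoxTam, with 82.2, 63.5 and 54.6 FPKM and a log2 fold of -0.58.

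Other regulators in the group stayed within 1.5-fold. *Nelfe*, a subunit of the negative elongation factor (648 kb), had 37.1 FPKM in WT, 27.1 in Tam and 26.3 in DoxTam, log2 folds of -0.44 and -0.48. *Ehmt2*, the histone H3 lysine 9 methyltransferase G9a (590 kb), had 38.2, 32.5 and 31.96 FPKM in WT, Tam and DoxTam, log2 folds of -0.23 and -0.25. The latter turned to 0.10 when rescaled to the same total, where all genes had a median of 0.32. *Pbx2*, a homeodomain cofactor gene (907 kb), had 15.1, 14.1 and 15.6 FPKM and was the 1 gene of the group above WT in DoxTam. *Msh5*, a meiotic mismatch repair gene, was below 1 FPKM in each library and so not measured, at 0.96, 0.41 and 0.40 FPKM.

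All 12 genes of RNA processing and translation were measured, 1 was lower in Tam and 3 in DoxTam (against 3.59% and 5.78% of all genes). The medians were -0.17 and -0.31. Rescaled to the same total they were -0.03 and 0.04, where all genes had 0.15 and 0.32. With small RNA genes left out of the total they were -0.18 and -0.30. *Vars*, the cytosolic valyl-tRNA synthetase (488 kb), had 87.1 FPKM in WT, 54.9 in Tam and 52.5 in DoxTam, log2 folds of -0.66 and -0.72. *Vars2* was the mitochondrial counterpart, so both valyl-tRNA synthetase genes were lower in DoxTam as deposited, and neither was when rescaled to the same total. Both stayed lower in DoxTam with small RNA genes left out of the total. *Gnl1*, a predicted GTPase gene (475 kb), had 42.9, 28.5 and 27.1 FPKM, log2 folds of -0.58 and -0.64, just inside the threshold in Tam and past it in DoxTam.

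*Ddx39b*, an RNA helicase of splicing and mRNA export, is the first measured gene on the opposite side (250 kb), with 143, 99.3 and 104 FPKM in WT, Tam and DoxTam and log2 folds of -0.52 and -0.45. *Abcf1*, which takes part in translation initiation (452 kb), had 111, 86.3 and 74.5 FPKM, log2 folds of -0.36 and -0.57. *Rpp21*, a subunit of ribonuclease P (751 kb), had 24.8, 30.2 and 21.4 FPKM, above WT in Tam and below it in DoxTam. *Mrps18b*, a mitochondrial ribosomal protein gene (406 kb), had 22.3, 22.96 and 25.4 FPKM and was at its lowest in WT.

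The group of membrane, cytoskeleton, signalling and metabolism genes was divided. Of 21 listed genes 18 were measured, 3 were lower in Tam (*Apom*, *Ddr1* and *Ppp1r18*) and 3 in DoxTam (*Apom*, *Ddr1* and *Gpsm3*), and the medians were 0.04 and -0.13. Rescaled to the same total they were 0.18 and 0.20, where all genes had 0.15 and 0.32. With small RNA genes left out of the total they were 0.03 and -0.12. *Tubb5*, the beta-tubulin gene and the highest neighbour of all (329 kb), had 537 FPKM in WT, 578 in Tam and 549 in DoxTam, log2 folds of 0.11 and 0.03. *Csnk2b*, the regulatory subunit of casein kinase 2 (383 kb), had 86.5, 89.6 and 99.4 FPKM. These highly expressed genes lie at the distances at which *Prrc2a* and *Ppp1r18* were lower.

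*Ppp1r18*, which encodes phostensin, an actin-binding partner of protein phosphatase 1 (361 kb), had 24.3 FPKM in WT, 15.3 in Tam and 17.2 in DoxTam, log2 folds of -0.64 and -0.48. *Gpsm3*, a modulator of G protein signalling (912 kb), had 3.24, 1.98 and 1.603 FPKM, log2 folds of -0.51 and -0.70, with a counting SE of 0.41 in both comparisons. *Apom*, the gene of apolipoprotein M (372 kb), had 1.197, 0.286 and 0.273 FPKM, which is about 15 fragments in WT and about 2 in each treated library. Its log2 folds of -0.77 and -0.79 carry a counting SE of 1.18 and 1.09, so its fold is poorly determined.

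Several genes of this group were at their highest in a treated library. *Clic1*, an intracellular chloride channel gene (445 kb), had 65.2, 77.1 and 67.8 FPKM, log2 folds of 0.24 and 0.06. *Ier3*, an immediate early gene (317 kb), had 5.47, 7.08 and 7.97 FPKM, log2 folds of 0.32 and 0.47. *Fkbpl*, a gene of the FK506-binding protein family (858 kb), had 7.03, 10.4 and 8.27 FPKM, and *Neu1*, the lysosomal sialidase (567 kb), had 7.62, 9.16 and 7.93 FPKM. *Abhd16a*, a lipase gene (401 kb), had 6.13, 6.62 and 6.96 FPKM. None of these reached 1.5-fold as deposited, while *Fkbpl* in Tam and *Ier3* in DoxTam did when rescaled to the same total. *Ddah2*, an enzyme of dimethylarginine breakdown beside *Clic1* (442 kb), was at its highest in WT, with 91.1 FPKM against 78.2 in Tam and 68.1 in DoxTam.

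The complement module of the class III region was nearly silent. Of 7 listed genes 2 were measured and 0 were lower or higher. *Cfb*, complement factor B (641 kb), had 1.31, 1.54 and 1.45 FPKM in WT, Tam and DoxTam, and *C2*, complement component 2 (622 kb), had 0.83, 0.89 and 0.47 FPKM. *Stk19*, a nuclear protein gene that lies in the same module (667 kb), had 7.94, 6.23 and 6.59 FPKM. *Trim39*, the 1 TRIM ubiquitin ligase gene in the stretch (754 kb), had 6.86, 6.495 and 5.63 FPKM.

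Of 14 cytokine and myeloid genes 6 were measured, 1 was lower in Tam and 0 in DoxTam. The highest was *Ly6g6e*, which encodes another LY6 surface protein (425 kb), with 13.6, 14.3 and 11.8 FPKM in WT, Tam and DoxTam. *Lst1*, a leukocyte gene (316 kb), had 1.43 FPKM in WT, was listed at 0 in Tam and had 0.66 FPKM in DoxTam. Its WT level is about 5 fragments, so it counts as lower in Tam on very few reads. *Tnf*, the gene of tumour necrosis factor, had 0.04 FPKM in WT and 0.20 in Tam and was listed at 0 in DoxTam.

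In all, 33 neighbours were below 1 FPKM in each library. Of these, 22 had a higher level in Tam than in WT, and 9 had a higher level in DoxTam than in WT. The same order was seen in olfactory receptor genes, which ESCs are not known to use: 70.7% of 1117 were above 0 in Tam, 34.02% in WT and 17.01% in DoxTam. The part of this general low-level signal in the silent neighbours was not tested.

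Among 20 genes in no list, 6 were measured in Tam and 5 in DoxTam. *1110038B12Rik*, a noncoding gene that hosts a small nucleolar RNA (552 kb), had 80.2 FPKM in WT, 135 in Tam and 113 in DoxTam, log2 folds of 0.74 and 0.49, and was 1 of the 2 neighbours higher in Tam. Its locus contains *Snord52*, whose reads the counting could have credited to it. The other was *D17H6S53E* (375 kb), with 2.33, 4.06 and 3.81 FPKM and log2 folds of 0.60 and 0.53.

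*A930015D03Rik* (490 kb) had 8.47 FPKM in WT, 3.80 in Tam and 5.16 in DoxTam, log2 folds of -0.98 and -0.62. Its locus overlaps the histocompatibility genes *H2-T23* and *H2-T24*, and reads of the overlap cannot be assigned with certainty. *2310061I04Rik* (388 kb) had 22.0, 14.1 and 17.7 FPKM, log2 folds of -0.61 and -0.30. *Gpank1*, a gene with a G-patch and ankyrin repeats (379 kb), had 21.4, 14.9 and 13.3 FPKM, log2 folds of -0.49 and -0.65. It lies between *Csnk2b*, which was above WT in both treated libraries, and *D17H6S53E*.

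Lower in both comparisons were 7 genes of the 61 measured in both: *A930015D03Rik*, *Apom*, *Ddr1*, *Nfkbil1*, *Prrc2a*, *Vars* and *Zbtb12*. How many of all genes were lower in both, or in only 1, was not counted, so these counts have no background to be read against. Rescaled to the same total, *Apom*, *Prrc2a* and *Zbtb12* were lower in both, and with the GC trend removed *Apom* and *Prrc2a* were. With small RNA genes left out of the total, all 7 stayed lower in both. Lower in Tam as deposited were a further 3 (*2310061I04Rik*, *Lst1* and *Ppp1r18*), and lower in DoxTam a further 8 (*Atf6b*, *Cchcr1*, *Gnl1*, *Gpank1*, *Gpsm3*, *Notch4*, *Psors1c2* and *Vars2*). Since a single WT library serves both, the comparisons do not support each other for these 7 genes. The genes lower in 1 comparison were not tested for a difference between Tam and DoxTam.

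**Figure D4:**
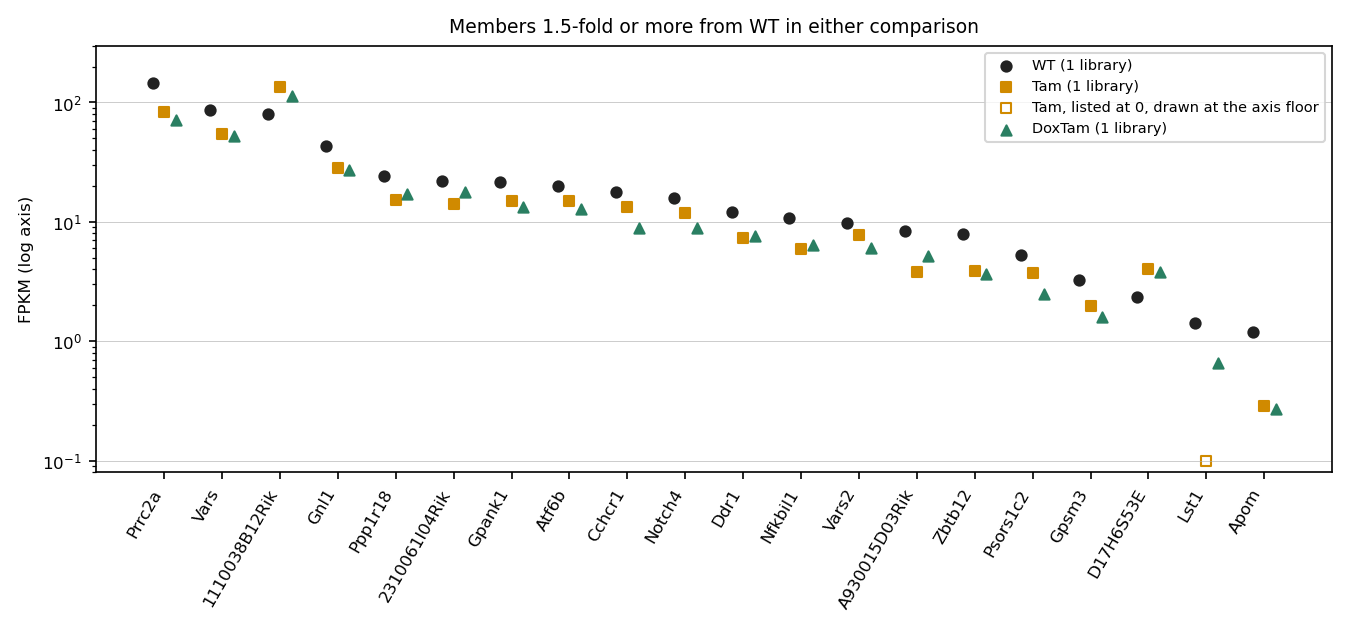
FPKM on a log axis in WT (circles), Tam (squares) and DoxTam (triangles), 1 library each, of the 20 neighbours of *Oct4* that differed from WT by 1.5-fold or more in either comparison, ordered by WT level. WT is the highest point for 18 of the 20, which the choice of genes by their fold from WT largely fixes. *1110038B12Rik* and *D17H6S53E* are the exceptions, and the open square is *Lst1*, listed at 0 in Tam. Levels are as deposited, and rescaling to the same total turned no called gene but left 6 of 10 genes lower in Tam and 5 of 15 in DoxTam. With small RNA genes left out of the total, 10 and 15 stayed lower.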

How the data were processed

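Libraries were made from total RNA with a stranded TruSeq kit. The authors deposited 2 tables of FPKM values per gene, each holding 1 treated library and WT, made with TopHat, Bowtie and Cufflinks 2.0.0 on mm9 by the submitters' processing notes. For the counting, no strand setting is given in the sources used here, so overlapping genes are uncertain (18 neighbours overlap another row). The tables' own fold changes, test statistics, p-values and q-values were not used.

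Tables were joined by locus. Listed starts were taken as counted from 0 (9505 of 21769 matched rows equal the annotated start after adding 1). Folds are log2((FPKM + 1)/(FPKM + 1)), with 1 FPKM or more in at least 1 library and a call at 1.5-fold. GC content came from GENCODE vM1 transcripts of the same build, and its trend was fitted with lowess (span 0.2, statsmodels 0.14.6) over all measured genes. Depth was estimated from the smallest steps of low FPKM values, and counting SEs follow from it, cover counting error only, and are approximate. Scripts were tested on simulated data.

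The neighbours, lists and rules were chosen with earlier results of these data known. Genes named are those within 100 kb of the segment, those at 1.5-fold in either comparison, the 6 highest and 6 lowest folds at 5 FPKM or more per comparison, the 6 highest WT levels and the 3 highest of each list. *Dpcr1*, *Sfta2*, *Gtf2h4*, *Nelfe*, *Pbx2*, *Msh5* and *Tnf* were named in addition, after their values were seen. The sequences of the 71 matched promoters are from RefSeq. No column of sample values was left without a library.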

Additional observations from a re-analysis of the deposited data

How the results depend on the processing

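No paired analysis was possible because each condition has 1 library, and for the same reason no library could be left out. WT levels of the neighbours were the same in both tables. Of 128 alternative values of the 10 summary results, 94 stayed close to the value given (counts within 1.5 times, medians and rho within 0.1). For rho this tolerance is large beside the values of 0.21 in Tam and 0.16 in DoxTam. Of the values of single genes under the alternatives, 936 stayed on their side of 1.5-fold, 75 moved inside it, 13 moved past it, and 0 called genes changed sign. At the depth of these libraries genes below 1 FPKM rest on few fragments.

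Most of the values that moved did so with the pseudocount, the scale or the GC trend. A pseudocount of 5 FPKM left 3 lower in Tam and 3 in DoxTam and 1 higher in Tam, with medians of -0.19 for DoxTam and, within 250 kb, -0.23 and -0.42. A pseudocount of 0.1 FPKM gave 1 higher in DoxTam. A 2-fold threshold left 1 lower and 0 higher in Tam and 1 lower in DoxTam. Rescaling to the same total gave 6 lower and 4 higher in Tam and 5 lower and 3 higher in DoxTam, medians of -0.056 and 0.030, and medians within 250 kb of -0.24 and -0.28. With small RNA genes left out of the total, 10 were lower and 2 higher in Tam, and 15 lower and 0 higher in DoxTam. The medians were then -0.19 and -0.29, and those within 250 kb -0.39 and -0.60. Removing the GC trend gave 4 lower in Tam, 4 lower and 2 higher in DoxTam, medians of -0.068 and -0.098, and medians within 250 kb of -0.26 and -0.28. Without a filter, the medians were -0.063 and -0.19, those within 250 kb -0.18 and -0.27, and the Tam rho with distance 0.10. The count higher in Tam was 1 with a filter at 5 FPKM, when centred on the median of all genes and, in alternatives added after the data were seen, over genes with a GC value or with about 50 fragments or more in WT. The cause was not tested.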
